A study of Mus musculus with 6 samples.

Results

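The 8 genes described here belong to the sinus venosus and the cardiac pacemaker and were measured in RNA from whole mouse hearts in midgestation (stage E13.5). They are the transcription factor genes Shox2, Isl1, Tbx3 and Tbx18, the calcium sensor gene Vsnl1, and the pacemaker channel genes Hcn2, Hcn3 and Hcn4. The rule took these 8 genes by symbol from the 46983 genes of the deposited table. They were chosen by name with the difference between mutant and wild type hearts in these same libraries already known. Every mutant to wild type difference of the 8 genes below is therefore a description and not independent evidence.

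The 3 mutant hearts (replicates 1, 5 and 10) are labelled TnnT2Cre;Wt1flox, and the 3 control hearts (replicates 2, 3 and 5) are labelled wild type, all on a C57BL/6 x DBA/2 background. The paper's methods give the mutants as Tnnt2 Cre/+; Wt1 flox/flox and the controls as embryos without Cre that also carry both floxed Wt1 alleles, so the floxed alleles are common to both groups and Cre is present only in the mutants. Wt1 encodes a zinc finger transcription factor of the epicardium and of some embryonic cardiomyocytes. The cardiac troponin T promoter drives Cre in the cardiomyocyte lineage from early heart development and, in this line, also in some epicardial cells, so the model is not limited to heart muscle. Each library holds 1 heart. The labels do not say whether the hearts came from separate litters, and the p-values measure only the spread between these samples.

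The sinus venosus is the inflow chamber of the embryonic heart, and its muscle gives rise to the sinus node, the site of the heartbeat's origin. In that muscle Tbx18 marks the sinus horns and the node head, Shox2 holds down Nkx2-5 and so keeps the working muscle programme off, Isl1 marks the progenitors and the node itself, and Tbx3 represses chamber muscle genes. HCN channels open on hyperpolarisation and carry the pacemaker current, and Hcn4 is the main gene of the family in the mouse sinus node. The node is a small structure, so in whole hearts these transcripts are mixed with those of all other tissue. Fewer cells of a type and less RNA per cell cannot be told apart in such bulk samples.

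All 8 genes were listed and passed the count filter. On GRCm38 they lie on chromosome 3 from 66971727 to 66981771 for Shox2, 13 from 116298281 to 116309689 for Isl1, 5 from 119670669 to 119684724 for Tbx3, 9 from 87702800 to 87731260 for Tbx18, 12 from 11325242 to 11436613 for Vsnl1, 10 from 79716634 to 79736108 for Hcn2, 3 from 89146074 to 89160196 for Hcn3, and 9 from 58823412 to 58863175 for Hcn4. All are protein-coding. The annotated exons of 4 of them share bases with a gene on the opposite strand. The share of the gene's exon bases is 4.62% for Shox2 (with Rsrc1), 1.74% for Tbx3 (with Tbx3os1), 20.6% for Tbx18 (with D030062O11Rik) and 17.1% for Hcn3 (with Pklr). The strand setting of the counting is not given in the sources used here, so reads on those bases are uncertain. No stretch of 50 bases of an Isl1, Vsnl1, Hcn2 or Hcn4 transcript was found in a transcript of another gene, so the HCN genes share none with each other, whereas 18.3% of such stretches of Tbx18 and 15.8% of those of Hcn3 were shared with other genes.

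Sequence upstream of a transcription start was at hand for 6 of the 8 genes, from RefSeq on GRCm38.p6. Tbx3 and Hcn3 were not matched. The bases before the start are shown for Shox2 and Vsnl1, which had the lowest ratios of mutant to wild type, and for Hcn4, whose groups overlapped. Each is read 5′ to 3′ on the gene's own strand, and capitals mark CpG dinucleotides. They are chr3:66981772-66982021 on the minus strand for Shox2, chr12:11436614-11436828 on the minus strand for Vsnl1, and chr9:58822699-58822948 on the plus strand for Hcn4.
Shox2 upstream bases: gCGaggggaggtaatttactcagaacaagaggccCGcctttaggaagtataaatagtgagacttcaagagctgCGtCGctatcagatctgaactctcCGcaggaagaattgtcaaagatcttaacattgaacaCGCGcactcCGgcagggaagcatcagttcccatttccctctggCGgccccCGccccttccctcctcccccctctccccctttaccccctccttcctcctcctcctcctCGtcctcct
Vsnl1 upstream bases: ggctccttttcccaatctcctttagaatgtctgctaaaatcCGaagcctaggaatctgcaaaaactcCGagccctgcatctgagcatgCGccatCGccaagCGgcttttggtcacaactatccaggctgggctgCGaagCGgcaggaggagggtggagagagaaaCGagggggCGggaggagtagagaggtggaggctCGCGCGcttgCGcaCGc
Hcn4 upstream bases: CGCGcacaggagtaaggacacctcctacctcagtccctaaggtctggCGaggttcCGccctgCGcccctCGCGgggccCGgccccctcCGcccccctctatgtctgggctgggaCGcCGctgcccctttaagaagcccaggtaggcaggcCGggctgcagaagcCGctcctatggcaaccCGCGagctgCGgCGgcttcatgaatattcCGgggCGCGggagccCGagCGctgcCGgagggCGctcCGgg
These runs hold 11 CpG dinucleotides in 250 bases for Shox2, 14 in 215 bases for Vsnl1 and 25 in 250 bases for Hcn4. The RefSeq starts behind the Vsnl1 and Hcn4 runs matched no annotated GENCODE transcript start. The Hcn4 run ends at 58822948, before the gene start at 58823412. Over the 300-base windows around all RefSeq starts (250 bases before and 50 after), GC content was 53.3% for Shox2, 69.0% for Isl1, 51.7% for Tbx18, 72.3% for Hcn2 and 71.7% for Hcn4, and 58.7% and 44.3% for the alternative starts of Vsnl1. The median over all 32851 windows was 52.7%, with 7 CpG dinucleotides. The GC-rich windows were thus those of Isl1, Hcn2 and Hcn4. Searched on both strands, the letters GCGTGGG (a core of sites of the WT1 and EGR zinc fingers), TAATTA (a homeodomain core) and GGTGTGA (a T-box half-site) were in none of the windows of these 6 genes, and in 5.04%, 5.29% and 3.98% of all windows. These letters, which do not overlap each other, were not in these windows, and nothing is read from that about the factors.

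The depth was between 44244665 and 56373393 counts per heart. The targeted gene, Wt1, was counted 2251, 1891 and 879 times in the wild type libraries (replicates 2, 3 and 5) and 921, 1746 and 1796 times in the mutant libraries (replicates 1, 5 and 10), a log2 fold change of −0.10 (SE 0.31), so its count per gene did not separate the groups. The deposited counts are per gene, and the deleted part was not told apart. Cardiomyocyte transcripts were abundant in all libraries, with a summed level of 12 marker genes between 18600 and 20600 FPKM. Wild type replicate 5 stood apart from the rest. The Spearman correlation of a gene's level relative to its mean over the 6 hearts with its length, over 11795 genes, was −0.56 in that heart and between −0.06 and 0.46 in the other 5. The log2 fold changes of the 8 genes are therefore given also without it, and that of Wt1 was then −0.33.

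Levels between genes are compared in FPKM, a count divided by gene length and by library depth. Averaged over the 6 hearts, Tbx18 stood highest at 23.6 FPKM, followed by Vsnl1 at 17.6, Shox2 at 16.4, Hcn4 at 8.48, Tbx3 at 5.14, Isl1 at 3.48, Hcn3 at 0.894 and Hcn2 at 0.32. Each gene was set against the next in the order within each heart, with a two-sided exact permutation test of the difference in log2(FPKM + 0.1), adjusted over the 7 pairs. Shox2 over Hcn4, Hcn4 over Tbx3, Tbx3 over Isl1, Isl1 over Hcn3 and Hcn3 over Hcn2 held in 6 of 6 hearts (exact p = 0.0312 each, the smallest that 6 hearts allow, adjusted p = 0.0437). The mean steps on that log2 scale were 0.85 ± 0.65 (SD, n = 6), 0.74 ± 0.36, 0.56 ± 0.27, 1.83 ± 0.31 and 1.23 ± 0.33, respectively. The step from Shox2 to Hcn4 was the most variable of these 5. Its SD spans both groups, whose ratios of Shox2 to Hcn4 did not overlap, so it is not the spread among like hearts. The order tested was taken from these same levels.

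The 3 highest genes were not separated by this test over both groups. Tbx18 was above Vsnl1 in 5 of 6 hearts (exact p = 0.125, adjusted p = 0.146), and Vsnl1 above Shox2 in 4 of 6 (exact p = 0.156, adjusted p = 0.156). The means of each group had the same order of the 8 genes, but the steps between the first 3 differed, at 24.6, 23.6 and 22.1 FPKM in wild type and 22.5, 11.6 and 10.6 FPKM in mutant hearts. Tbx18 was above Vsnl1 and Shox2 in each of the 3 mutant hearts. The order also rests on the gene lengths behind the deposited FPKM, which for most of these genes are shorter than the annotated exons. That length was 1751 bases for Shox2 against 3311 exon bases, 1518 against 4154 for Hcn3 and 2551 against 4718 for Tbx18, but 1934 against 1956 for Vsnl1. With all exon bases as the length, Vsnl1 came first (17.4 FPKM), before Tbx18 (12.8) and Shox2 (8.65), Hcn3 (0.327) and Hcn2 (0.315) were nearly level, 3 of the 7 steps held in every heart, and no adjusted p of the exact permutation test was under 0.05 (smallest 0.0729). The main comparison of each gene between mutant and wild type, on counts, does not use this length. The alternative fits on FPKM and the one with an offset for gene length do use it.

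**Figure D1:**
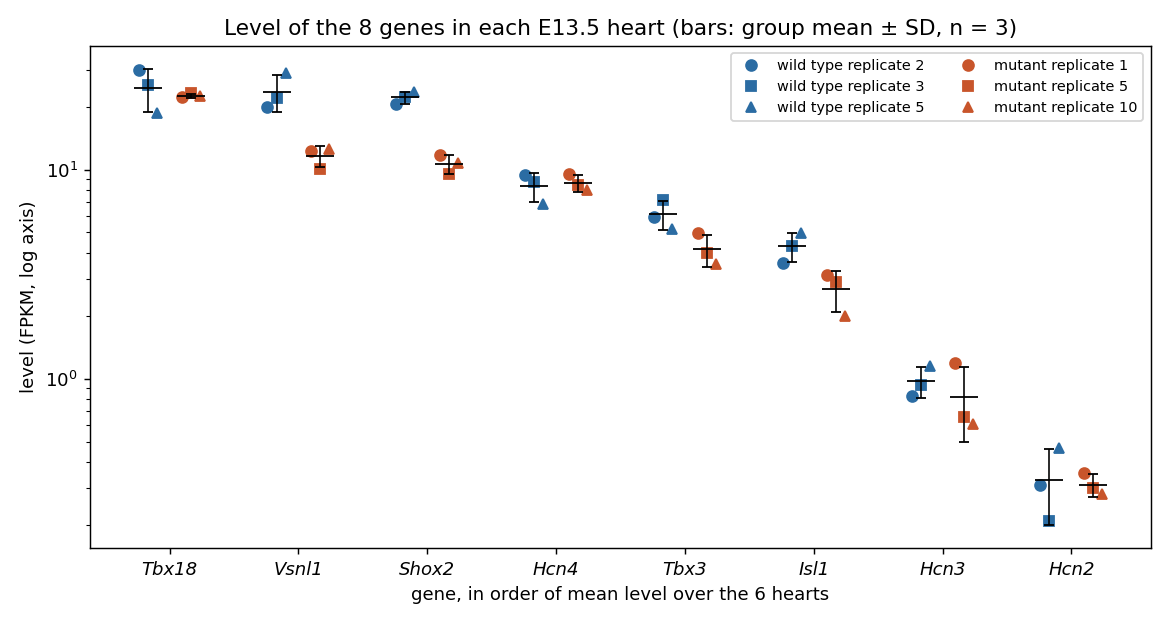
Level of each of the 8 genes (FPKM, log axis) in each heart, in the order of the mean over the 6 hearts; blue points are wild type and orange points mutant hearts, and bars are the group mean ± SD (n = 3). The wild type and mutant points of Shox2, Vsnl1, Isl1 and Tbx3 do not overlap, and those of Tbx18, Hcn4, Hcn3 and Hcn2 do.

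Between mutant and wild type hearts, 4 of the 8 genes were lower in every mutant heart than in every wild type heart, namely Shox2, Vsnl1, Isl1 and Tbx3. Their mean levels in the mutants were 0.492, 0.502, 0.633 and 0.694 times those of the wild type on the count scale of the fit. The other 4, Tbx18, Hcn2, Hcn3 and Hcn4, had overlapping groups, and none of the 8 was higher without overlap. With edgeR's quasi-likelihood test on the 17473 genes tested, none of the 8 had a Benjamini-Hochberg adjusted p under 0.05, and neither did any other gene (0% of all genes tested). At an unadjusted p under 0.05 the same 4 genes were lower, beside 1002 genes in either direction (5.73% of those tested) and 453 lower in the mutant (2.59%). Groups that did not overlap were seen in 11.2% of all genes tested in either direction and in 4.59% with the mutant lower. Since the 8 genes were selected on this contrast, nothing is read from their share against these.

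DESeq2, the study's own tool, gave 133 of 19282 genes an adjusted p under 0.05, and 2 of the 8, Shox2 and Vsnl1, were among the lower ones (0.285% of the genes with an adjusted p). The same 2 genes were called by edgeR without the filter on low counts, where 0.0522% of 26831 genes were called as lower, and without wild type replicate 5, where 0.112% of 17814 were. A correction for each heart's trend with gene length called Shox2 but not Vsnl1, with 0.0172% of all genes tested called as lower.

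Shox2 (ENSMUSG00000027833), the homeobox gene that gives the group its name, stood at 20.5, 22.3 and 23.4 FPKM in wild type replicates 2, 3 and 5, and at 11.7, 9.5 and 10.7 FPKM in mutant replicates 1, 5 and 10. The 3 mutant hearts were within 2.24 FPKM of each other, and 8.81 FPKM separated the highest of them from the lowest wild type heart. The counts behind these levels were 1812 to 2202 in wild type and 868 to 1049 in mutant hearts. On average Shox2 was 22.1 ± 1.44 FPKM (SD, n = 3) in wild type and 10.6 ± 1.12 FPKM in mutant hearts (SD, n = 3). Its log2 fold change of counts, mutant over wild type, was −1.02 (SE 0.12, 95% interval −1.30 to −0.75, edgeR adjusted p = 0.0991), with the second smallest p of all genes tested. DESeq2 gave −1.02 with an adjusted p of 2.05e-09. Without wild type replicate 5 edgeR gave −0.97 with an adjusted p of 0.0181, and over each heart left out in turn the value lay between −1.08 and −0.95. Rsrc1, whose exons touch those of Shox2 on the other strand, stood at 22.3 ± 1.85 FPKM in wild type and 22.2 ± 2.6 FPKM in mutant hearts, a log2 fold change of 0.02 (SE 0.11).

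Isl1, a LIM homeobox gene of cardiac progenitors and the sinus node, was low throughout. It stood at 3.59, 4.31 and 4.97 FPKM in wild type replicates 2, 3 and 5 and at 3.12, 2.91 and 2.0 FPKM in mutant replicates 1, 5 and 10. The groups did not overlap, but mutant replicate 1 and wild type replicate 2 were only 0.474 FPKM apart. The log2 fold change was −0.66 (SE 0.21, 95% interval −1.15 to −0.17, edgeR adjusted p = 0.696) on 145 to 332 counts per heart. DESeq2 gave an adjusted p of 0.295, and the range with each heart left out was −0.77 to −0.51 (−0.53 without wild type replicate 5).

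Tbx3, a T-box repressor expressed along the conduction system, had 5.92, 7.18 and 5.22 FPKM in wild type replicates 2, 3 and 5. The mutant hearts, in the order 1, 5 and 10, had 4.97, 3.98 and 3.55 FPKM. Here too the groups touched without overlap, wild type replicate 5 and mutant replicate 1 being 0.246 FPKM apart. The log2 fold change was −0.53 (SE 0.16, 95% interval −0.88 to −0.17, edgeR adjusted p = 0.646). Without wild type replicate 5 it was −0.62, with an adjusted p of 0.158 by edgeR and 0.0103 by DESeq2 (1.08% of its genes were then called as lower), against 0.253 by DESeq2 with all hearts. The antisense transcript Tbx3os1 had 96, 71 and 178 counts in wild type and 44, 78 and 16 counts in mutant hearts, in the same order of replicates, few beside the 591 to 1270 counts of Tbx3.

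Tbx18, the T-box gene of the sinus horns, is also a gene of the epicardium, and in whole hearts both sources are counted. It had 29.9, 25.4 and 18.6 FPKM in wild type replicates 2, 3 and 5 and 22.2, 23.1 and 22.4 FPKM in mutant replicates 1, 5 and 10. The mutant hearts lay within the wild type range through wild type replicate 5 alone, the lowest of all. Wild type replicates 2 and 3 were above every mutant heart. The log2 fold change was −0.10 (SE 0.16, 95% interval −0.46 to 0.27). It was −0.25 (SE 0.09, edgeR adjusted p = 0.329) with wild type replicate 5 left out, and 0.07 (SE 0.15) with wild type replicate 2 left out. A lower or a higher mean level of Tbx18 within that interval was not told apart from none with these hearts.

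Vsnl1 (visinin-like 1), a neuronal calcium sensor gene that is also a marker of the sinus node and sinus horns, was lower by about as much as Shox2. Its level was 19.9, 22 and 28.9 FPKM in wild type replicates 2, 3 and 5, and 12.2, 10.1 and 12.5 FPKM in mutant replicates 1, 5 and 10. The highest mutant heart stayed 7.36 FPKM below the lowest wild type heart, and wild type replicate 5 was the highest of its group. The means were 23.6 ± 4.72 FPKM (SD, n = 3) in wild type and 11.6 ± 1.32 FPKM in mutant hearts (SD, n = 3). This is a log2 fold change of −0.99 (SE 0.17, 95% interval −1.39 to −0.60, edgeR adjusted p = 0.199, DESeq2 adjusted p = 8.04e-05), and −0.81 without wild type replicate 5 (edgeR adjusted p = 0.0423). The range over the left-out hearts was −1.10 to −0.81.

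Hcn4, the main pacemaker channel gene of the node, was far above Hcn2 and Hcn3 in level. It had 9.43, 8.72 and 6.85 FPKM in wild type replicates 2, 3 and 5 and 9.5, 8.45 and 7.96 FPKM in mutant replicates 1, 5 and 10. The groups overlapped almost wholly, with wild type replicate 5 the lowest heart. The log2 fold change was 0.08 (SE 0.13), and its 95% interval of −0.22 to 0.38 does not hold the value found for Shox2 or Vsnl1, though the differences between genes were not tested. Without wild type replicate 5 the sign turned, to −0.03. In later mutant embryos the paper shows HCN4 protein missing from the back of the right sinus horn and mostly in the right atrial wall. RNA of whole hearts does not show where in the heart a gene is expressed.

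The minor channel genes were near 1 FPKM or below. Hcn3 had 0.831, 0.935 and 1.15 FPKM in wild type and 1.19, 0.656 and 0.608 FPKM in mutant hearts, on 49 to 92 counts per heart, and the highest value of all was in a mutant. Hcn2 had 0.31, 0.209 and 0.468 FPKM in wild type and 0.355, 0.299 and 0.282 FPKM in mutant hearts, on 37 to 65 counts. At this depth the intervals were wide, from −0.98 to 0.52 on the log2 scale for Hcn3 (estimate −0.23, −0.57 with mutant replicate 1 left out, −0.08 with wild type replicate 5 left out) and from −0.87 to 0.77 for Hcn2 (estimate −0.05, and 0.30 without wild type replicate 5), so smaller differences than these were not detectable.

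**Figure D2:**
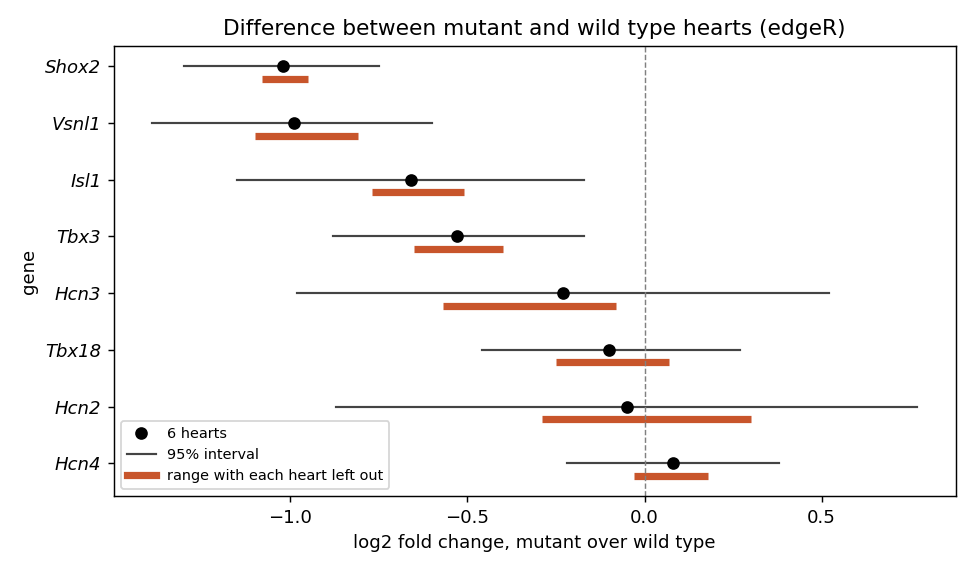
Log2 fold change of each gene, mutant over wild type, with its 95% interval (edgeR, 6 hearts) and, in orange, the range when each heart was left out in turn. The intervals of Shox2, Vsnl1, Isl1 and Tbx3 lie below 0, those of the other genes span 0, and the left-out ranges of Tbx18, Hcn2 and Hcn4 also span 0.

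Ratios of the 8 genes were also formed within each heart. The level of Vsnl1 relative to Shox2 was 0.969, 0.986 and 1.24 in wild type replicates 2, 3 and 5 and 1.04, 1.06 and 1.17 in mutant replicates 1, 5 and 10, so the groups overlapped. Isl1 relative to Tbx3 lay between 0.599 and 0.953 in wild type and between 0.563 and 0.733 in mutant hearts.

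By contrast, Shox2 relative to Hcn4 was 2.18, 2.56 and 3.41 in wild type replicates 2, 3 and 5 and 1.24, 1.12 and 1.34 in mutant replicates 1, 5 and 10. Shox2 relative to Tbx18 was 0.687, 0.879 and 1.26 in the former and 0.529, 0.411 and 0.478 in the latter. Neither ratio overlapped between the groups. These ratios within a heart show that the genes differed unequally, not that Hcn4 or Tbx18 stayed level, and they restate the differences on which the genes were chosen.

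The genes most like Shox2 across the 6 hearts were found among 11493 other genes with a mean of at least 5 CPM (counts scaled to a common library depth), by the root mean square distance between log2 CPM values centred on each gene's mean. The nearest was Vsnl1, at a distance of 0.127, followed by Lsp1 (0.131), Apela (0.152), Wnt2 (0.167) and Dact2 (0.175). Tbx3 ranked 46 (0.317), Tbx18 5473 (0.551) and Hcn4 7776 (0.594), and Isl1, Hcn2 and Hcn3 were under the minimum. Being chosen for likeness to Shox2, the near genes had to differ between the groups, and their values are a description only.

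Lsp1, a gene of an actin-binding protein of white blood cells, had 58.3, 53.2 and 66.7 FPKM in wild type and 29.9, 30.2 and 29.6 FPKM in mutant hearts, a log2 fold change of −0.96 (SE 0.12). Apela, which encodes a peptide ligand of the apelin receptor, had 19.3, 18.3 and 19.1 FPKM and 11.4, 7.44 and 11.2 FPKM, a log2 fold change of −0.89 (SE 0.18). Wnt2, a Wnt ligand gene of the cardiac inflow region, had 4.79, 5.24 and 5.12 FPKM and 3.65, 2.3 and 2.87 FPKM, a log2 fold change of −0.75 (SE 0.18). None of the near genes overlapped between the groups. Dact2, an intracellular modulator of Wnt and TGF-beta signalling, went with them at 4.20 ± 0.425 FPKM in wild type and 2.36 ± 0.218 FPKM in mutant hearts (SD, n = 3).

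**Figure D3:**
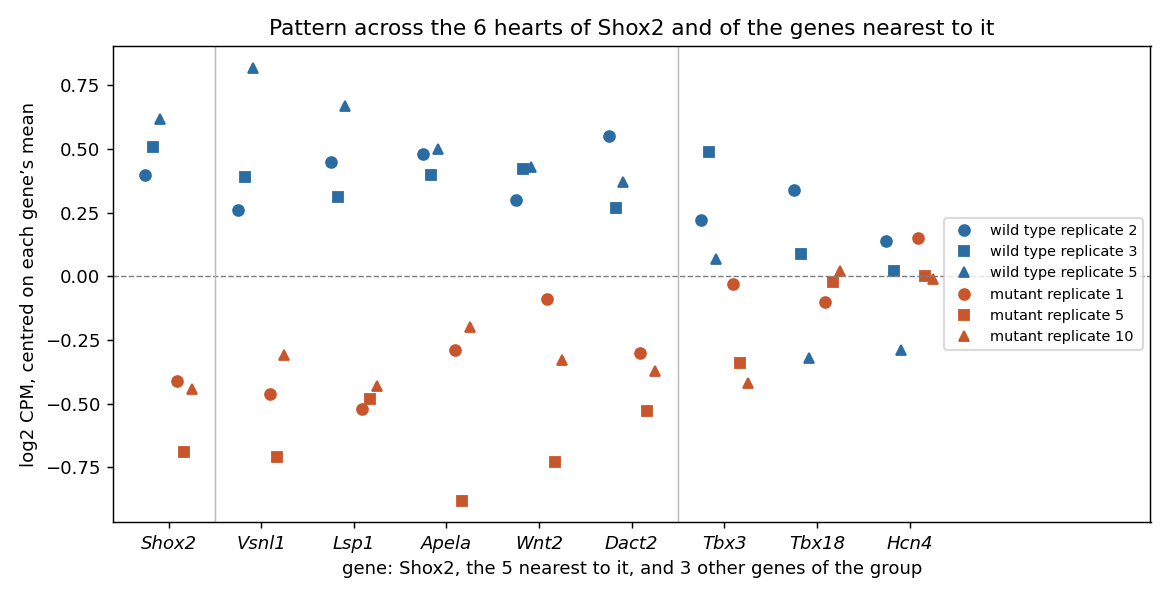
Log2 CPM in each heart, centred on each gene's mean over the 6 hearts, for Shox2, the 5 genes nearest to it, and Tbx3, Tbx18 and Hcn4; blue points are wild type and orange points mutant hearts. Shox2 lay between 0.40 and 0.62 in wild type and between −0.69 and −0.41 in mutant hearts, and its near genes split the hearts in the same way, while the points of Tbx18 and Hcn4 mix.

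Other genes of the pathway were taken from lists written for this tissue, and each list is given by its counts beside those over all genes tested, where 8699 were higher and 8774 lower in the mutant, 549 and 453 of them at an unadjusted p under 0.05. Each median is followed by its range with each heart left out in turn, or by its values without the hearts that moved it most. No gene of any list passed the edgeR threshold. By DESeq2, only those list genes passed for which its adjusted p is given below. Some genes are on more than 1 list. Of 20 regulators of the sinus venosus and node, 8 were higher and 12 lower, with a median log2 fold change of −0.05 (−0.14 to 0.09, turning positive without wild type replicate 2 or mutant replicate 5 or 10). At an unadjusted p under 0.05, 1 was higher and 2 were lower. The lower ones were Wnt2, described above and called by DESeq2 (adjusted p = 0.025), and Tbx2, a T-box repressor of chamber genes, with 7.45, 10.6 and 11.0 FPKM in wild type and 7.03, 6.55 and 4.59 FPKM in mutant hearts (log2 fold change −0.65, SE 0.19). Wnt2b, another Wnt ligand gene, was the higher one, at 4.6 ± 1.51 and 8.37 ± 2.94 FPKM with overlapping groups (log2 fold change 0.91, SE 0.33).

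The core cardiac regulators on that list were close to level. Tbx5, which activates Shox2 in the inflow region, had a log2 fold change of −0.11 (SE 0.13). Nkx2-5, the working muscle regulator that Shox2 holds down, had −0.09 (SE 0.12) at 147 and 135 FPKM in wild type and mutant hearts. Bmp4, a ligand gene downstream of Shox2, had −0.08 (SE 0.13). All 3 are also expressed outside the node, and node and other tissue were not separated in these libraries.

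Of 15 genes of node currents, the calcium clock and cell coupling, 5 were higher and 10 lower (median log2 fold change −0.07, range −0.12 to 0), and 1 was past an unadjusted p of 0.05. That was Pln, the inhibitor of the calcium pump of the sarcoplasmic reticulum, with 297, 359 and 394 FPKM in wild type and 425, 467 and 485 FPKM in mutant hearts (log2 fold change 0.42, SE 0.15, edgeR adjusted p = 0.765). The pacemaker calcium channel genes Cacna1d and Cacna1g had log2 fold changes of −0.17 (SE 0.21) and −0.35 (SE 0.20). Among the low-conductance connexins of the node, Gjc1 had −0.01 (SE 0.10) and Gjd3 −0.53 (SE 0.31), the latter with overlapping groups.

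Partners of the HCN channels were described 1 by 1. Lrmp, whose protein modulates HCN4, had 1.42, 1.13 and 1.29 FPKM in wild type and 1.86, 1.98 and 2.09 FPKM in mutant hearts, without overlap (log2 fold change 0.66, SE 0.22, edgeR adjusted p = 0.728). Cav3, the muscle caveolin, had 0.37 (SE 0.19) and Mrvi1, also called Irag1, −0.21 (SE 0.13).

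Of 15 node marker genes, 8 were higher and 7 lower, with a median of 0.11 (0.04 to 0.14, lowest without wild type replicate 5). At an unadjusted p under 0.05, 1 was higher and 2 were lower. Lbh, among the 8 higher (log2 fold change 0.26, SE 0.13), is also on the ventricular list below. Cpne5, a calcium-dependent phospholipid-binding protein gene, was lower in every mutant heart, at 7.46, 6.05 and 6.29 FPKM against 11.7, 9.32 and 9.71 FPKM in wild type (log2 fold change −0.61, SE 0.13, edgeR adjusted p = 0.35, DESeq2 adjusted p = 0.0173). Adora1, the adenosine A1 receptor gene, was also lower without overlap (log2 fold change −0.31, SE 0.11). Chrm2, the muscarinic M2 receptor gene, was higher in counts without overlap but overlapped in FPKM (0.39, SE 0.17), and Smoc2, a matrix protein gene of the node, had 0.20 (SE 0.19).

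The opposite programme was represented by 10 genes of working myocardium that are held low in the node, of which 8 were higher and 2 lower (median 0.14, range 0.11 to 0.32, highest without wild type replicate 2), and 1 was higher at an unadjusted p under 0.05. Gja1, the gene of the fast-conducting connexin 43, had 139, 144 and 117 FPKM in wild type replicates 2, 3 and 5 and 192, 229 and 204 FPKM in mutant replicates 1, 5 and 10. The lowest mutant heart stood 47.4 FPKM above the highest wild type heart, with a log2 fold change of 0.68 (SE 0.13, edgeR adjusted p = 0.273, DESeq2 adjusted p = 0.000654). Gja5, the connexin 40 gene, had 0.29 (SE 0.14) and Kcnj2, the main inward rectifier gene, 0.31 (SE 0.14). The 2 lower genes were Nppa, at −0.42 (SE 0.40), and Hopx, at −0.11 (SE 0.19), both with overlapping groups.

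Markers of the surrounding tissues moved with these results in part. Of 11 atrial genes, some of them also on other lists, 9 were lower and 2 higher (median −0.38, range −0.62 to −0.28, lowest without wild type replicate 3), with 5 lower and 1 higher at an unadjusted p under 0.05. The higher one was Bmp10, an atrial ligand gene (0.40, SE 0.17). Their summed level was 4780 to 6480 FPKM in wild type and 4110 to 5270 FPKM in mutant hearts. Myl7, the atrial myosin light chain gene, had 2460, 1960 and 2940 FPKM in wild type and 1880, 1360 and 1910 FPKM in mutant hearts. Kcna5, an atrial potassium channel gene, had 8.71, 7.69 and 7.57 FPKM and 4.88, 4.52 and 4.76 FPKM (log2 fold change −0.73, SE 0.11, edgeR adjusted p = 0.133, DESeq2 adjusted p = 8.8e-05). Nr2f1, an atrial nuclear receptor gene, had 22 ± 4.25 FPKM in wild type and 10.9 ± 3.97 FPKM in mutant hearts. Its log2 fold change was −1.0 (SE 0.25, edgeR adjusted p = 0.456, DESeq2 adjusted p = 0.0114). Nr2f2, a related receptor gene, had −0.35 (SE 0.12). Kcna5, Nr2f1 and Nr2f2 were lower without overlap in CPM and in FPKM. Myl7 (log2 fold change −0.48, SE 0.20) was separated in FPKM but overlapped in CPM.

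All 10 ventricular genes were higher in the mutant (median 0.23, range 0.16 to 0.26), 3 of them at an unadjusted p under 0.05. Their summed level was 12000 to 13700 FPKM in wild type and 13800 to 15000 FPKM in mutant hearts, narrowly without overlap. The largest term of that sum was Myl2, whose groups overlapped. It had 6890, 7060 and 8220 FPKM in wild type and 8510, 8150 and 8410 FPKM in mutant hearts. Irx4, the ventricular homeobox gene, had 29.7, 31.0 and 28.0 FPKM in wild type and 36, 34.7 and 35.1 FPKM in mutant hearts (log2 fold change 0.29, SE 0.09). Of the 12 genes of all cardiomyocytes, 10 were higher and 2 lower (median 0.10, but −0.01 with wild type replicate 5 left out, or 0.04 with mutant replicate 10 left out), and their sums overlapped, at 18600 to 20400 FPKM in wild type and 19700 to 20600 FPKM in mutant hearts. The part of the atrial and ventricular shares of the tissue in the lower levels of Shox2, Vsnl1, Isl1 and Tbx3 was not tested, and tissue share and level per cell cannot be told apart.

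Tbx18 is shared with the epicardium, and of 10 epicardial genes 6 were higher and 4 lower (median 0.14, range −0.13 to 0.36). It was −0.10 or −0.13 when wild type replicate 5 or mutant replicate 10 was left out, and 0.35 or 0.36 when wild type replicate 2 or mutant replicate 1 was. Their sum was 236, 200 and 140 FPKM in wild type replicates 2, 3 and 5 and 136, 188 and 226 FPKM in mutant replicates 1, 5 and 10. Within wild type, both this sum and Tbx18 were lowest in replicate 5. Among the mutants the sum differed between hearts, whereas Tbx18 was 22.2, 23.1 and 22.4 FPKM in the same order. Tcf21, a transcription factor gene of the epicardium and of fibroblast progenitors, was lower in every mutant heart, at 42.3 ± 5.49 and 19.4 ± 3.63 FPKM (log2 fold change −1.10, SE 0.15, edgeR adjusted p = 0.113, DESeq2 adjusted p = 1.6e-07). Upk1b, a mesothelial uroplakin gene, was higher in every one (0.96, SE 0.29).

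Vsnl1 and Isl1 are also expressed in neurons, so neuronal and glial genes were counted beside them. Of 12 listed, 11 were tested, with 3 higher and 8 lower (median −0.19, from −0.45 with mutant replicate 5 left out to −0.07 with wild type replicate 5 left out), and their sum was 13.7 to 16.8 FPKM in wild type and 12.1 to 15.3 FPKM in mutant hearts. The neuron marker Stmn2 was at 5.13 FPKM or below in every heart. Chat had no more than 2 counts in any heart. Prph, the peripherin gene, was higher in the mutants, at 0.456 ± 0.0982 FPKM in wild type and 1.22 ± 0.331 FPKM in mutant hearts. Its log2 fold change was 1.45 (SE 0.33, edgeR adjusted p = 0.385, DESeq2 adjusted p = 0.0122).

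Tissue dissected along with the inflow region was looked for with 10 genes of lung and foregut epithelium. Their sum was 0.694, 2.96 and 10.4 FPKM in wild type replicates 2, 3 and 5 and 1.54, 9.83 and 0.664 FPKM in mutant replicates 1, 5 and 10, so 1 heart of each group was high. Of the 7 tested, 2 were higher and 5 lower, and the median of −0.12 ranged from −1.87 without mutant replicate 5 to 2.12 with wild type replicate 5 left out, and was positive also when mutant replicate 1 or 10 was. Sftpc had at most 7 counts in any heart, and Nkx2-1 had 64 and 65 counts in those 2 hearts and at most 8 in the others. For the outflow tract and second heart field, where Isl1 is also expressed, 6 of 8 genes were tested, 3 higher and 3 lower (median −0.16, but 0.14, 0.02 and 0.13 without wild type replicate 3, wild type replicate 5 and mutant replicate 10), with sums of 16 to 31.9 FPKM in wild type and 17.5 to 25.7 FPKM in mutant hearts. Both sums overlapped between the groups, and the part of other tissue in Isl1 and Tbx3 was not tested.

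**Figure D4:**
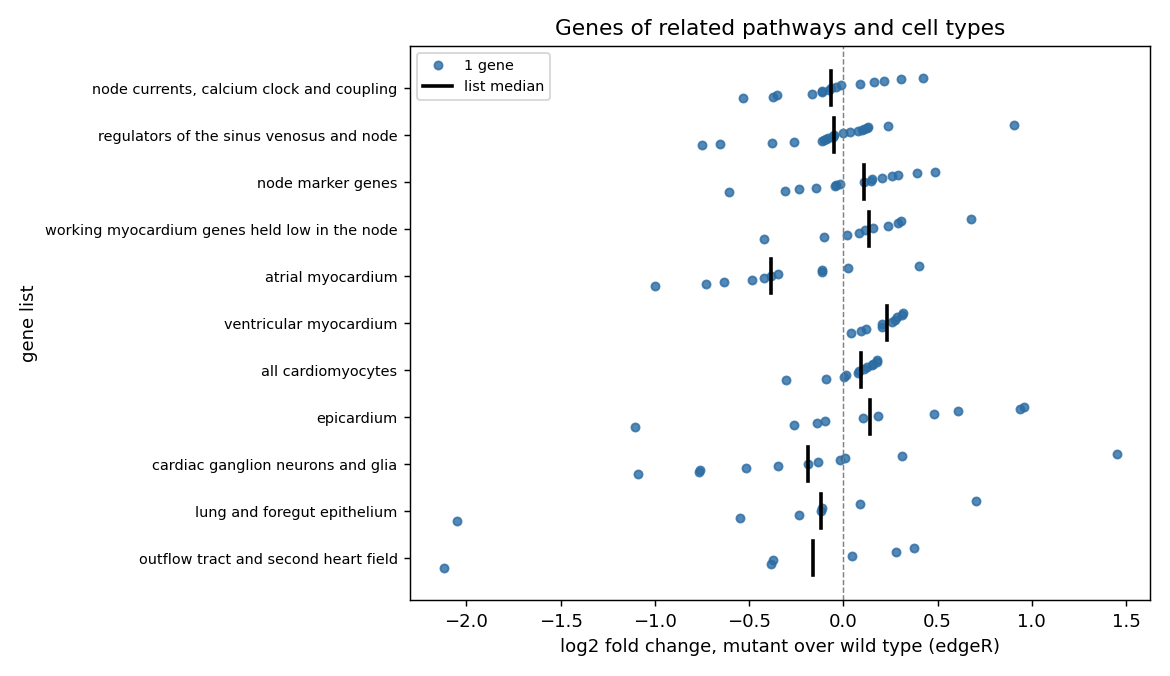
Log2 fold change, mutant over wild type (edgeR), of the genes tested in each of 11 lists; each point is 1 gene and each bar the list's median. The atrial list has the lowest median (−0.38) and the ventricular list the highest (0.23), while the lists of node currents and node regulators lie close to 0, and the latter turns positive without wild type replicate 2.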

How the data were processed

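Libraries of 3 mutant and 3 wild type E13.5 hearts were compared, and groups and replicate numbers were taken from the sample titles. The authors' methods describe alignment of trimmed reads to mm10 with STAR and assignment of uniquely mapped reads to genes with featureCounts and annotation release M19, whereas the labels name HTSeq and DESeq2. The strand setting is not given in the sources used here. The authors deposited the resulting counts per gene without normalization. The deposited FPKM values equal the authors' count over a fixed gene length and the library total (largest relative deviation 6.44e-15), and a table of group mean FPKM was not used.

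The counts were compared with edgeR 4.0.16 in R 4.3.3 (quasi-likelihood test, TMM, filterByExpr defaults, two-sided, no covariates, Benjamini-Hochberg adjusted p under 0.05 over 17473 genes). An SE is the log2 fold change over the square root of F. Intervals are at 95%. Depth was 44244665 to 56373393 counts per heart. The fits were also run on simulated counts that held no outlying heart and no trend with gene length, and nothing is read from that run. The genes and lists were chosen with earlier results of these data known. Genes named beyond the 8 are, by rule, the 3 of smallest p in each of 12 lists, 10 further genes of the pathway, overlapping genes, the 5 nearest to Shox2, and Wt1. Some of these, and the counts of 1 list, are not reported here. Myl7, Bmp10, Nppa, Hopx, Lbh, Myl2, Sftpc, Nkx2-1 and Chat were named after their values were seen. Alternatives were DESeq2 1.42.0, limma 3.58.1 (voom, and trend on log2(FPKM + 1) or log2(FPKM + 0.1)), other size factors, no filter, an offset for gene length (local regression, span 0.5), and each heart left out. Fits that combined the last with DESeq2 or the offset, and levels by exon length, were added after the data were seen. Exon overlap, exon length and shared sequence were taken from GENCODE M21 on GRCm38.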

Additional observations from a re-analysis of the deposited data

How the results depend on the processing

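Across all genes the count past the threshold was 0 by edgeR, limma and other size factors. It was 133 by DESeq2 (2 of the 8 genes, Shox2 and Vsnl1), 34 without the filter (2, the same genes) and 4 with the gene length offset (1, Shox2). With each heart left out it was 0 to 44 (0 to 2 of the 8), the 44 without wild type replicate 5, and 39 with the length offset and without that heart (2). DESeq2 gave 95 without wild type replicate 2, 107 without wild type replicate 3, 447 without wild type replicate 5, and 139, 71 and 74 with mutant replicate 1, 5 or 10 left out (2 of the 8 in each, and 3, with Tbx3, without wild type replicate 5). Why the counts differ between tools was not tested.

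Of the member values under alternatives, 137 kept direction and side of the threshold, 22 passed it and 9 changed sign. Those that changed sign were of Tbx18, Hcn2 and Hcn4, whose values in the main fit were −0.10, −0.05 and 0.08. The largest after the change was 0.33, for Hcn2. With each heart left out, Tbx18 ranged from −0.25 to 0.07, Hcn2 from −0.29 to 0.30 and Hcn4 from −0.03 to 0.18. Tbx18 was 0.06 by DESeq2 without wild type replicate 2, and Hcn2 was 0.06 by limma-voom. Without wild type replicate 5, Hcn2 was 0.33 with the length offset and 0.30 by DESeq2, and Hcn4 −0.0046 and −0.04. The list medians moved by more than their spread in 11 cases and by less in 157, among them 0.03 for node markers by limma on FPKM and −0.25 for atrial genes by limma-voom. The order of levels held in 5 of 7 steps, and in 3 with the length of all exons.

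No paired analysis was made, since the labels record no pairing of hearts between the groups. Replicate numbers come from the sample titles and are not read as pairs. Leaving out 1 heart leaves an arm of 2. The genes near 1 FPKM, Hcn2 and Hcn3, are limited by their counts of 37 to 92 per heart.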
